A study of Sus scrofa with 102 samples.

Results

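Gene expression in the skeletal muscle (longissimus dorsi) of fattening pigs (5-month-old) was compared between 2 crossbreds, LWDL and LWDM. The 15 arrays of this contrast, 8 of LWDL and 7 of LWDM pigs, were chosen by their labels for tissue and age from the 102 arrays of the series, which also covers fat and liver and 85-day-old fetuses and 12-day-old sucklings. The mothers of both breed types were LWD sows, a cross of Landrace, Large White and Duroc. The fathers were a single Landrace boar for LWDL and a single Meishan boar for LWDM, so that the breed of the father and the individual boar cannot be told apart. The study's methods name 2 such sows, so that the pigs of a breed type share their father and may share their mother. All pigs were female and were raised on commercial diets without further treatment. On each array the muscle RNA of a single pig, labeled with Cy3, was hybridized with a Cy5-labeled pool of sow liver RNA, which is a reference and not a sample of either breed type, and the dyes were never exchanged.

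Landrace is a lean European breed, and Meishan is a Chinese breed known for early fat deposition and large litters. The longissimus dorsi is a back muscle made mostly of fast-twitch fibres, which draw on stored glycogen and on glucose taken from the blood, while slow-twitch fibres burn fatty acids in mitochondria. Fat within the muscle is held in adipocytes between the fibres and in droplets inside them, and the fibres are held together by a collagen-rich matrix laid down by fibroblasts. The comparison asks which transcripts of the muscle differ between animals with a Meishan and with a Landrace father late in growth.

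Unless the Cy3 channel is named, every value of a gene or probe below is a log2 ratio of the animal over the sow liver pool. A value of one gene therefore cannot be set against that of another. A difference is the LWDM mean minus the LWDL mean on this scale, and a positive one means a higher level in LWDM pigs. A probe was called where limma gave a difference of over 2-fold and a p value, adjusted over all tested probes after Benjamini and Hochberg, under 0.05, and it passed the test where only the adjusted p was under 0.05. Where a probe was well above background in only some animals of one breed type, the difference is the fitted one, set in part against background, and is no measure of the true ratio. In whole muscle, fewer cells of a type and less RNA per cell cannot be told apart.

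The arrays held muscle by their markers. The level of a marker set is the log2 of its summed Cy3 signal, scaled to the 75th percentile of each array. It is not a ratio to the liver pool, and the brightest markers weigh most in it. All 16 skeletal muscle markers with a named probe were well above background on all 15 arrays. Their level was 11.9 to 12.3 in LWDL and 12.0 to 12.4 in LWDM pigs, against -2.15 to -0.56 in the liver of the same animals. The level of the 9 hepatocyte markers was 1.20 to 2.02 in LWDL and 0.90 to 1.67 in LWDM muscle and 7.04 to 7.83 in liver. None of the tested genes among them passed the test. The 5 adipocyte markers had a level of 3.93 to 4.26 in LWDL and 4.22 to 4.53 in LWDM pigs. The highest LWDL array was thus above the lowest LWDM array. Of the 3 tested genes 1 passed the test, CD36, a fatty acid transporter that muscle fibres express too (0.38 higher in LWDM). PLIN1, the coat protein of lipid droplets in adipocytes, was well above background on 4 of 8 LWDL and 0 of 7 LWDM arrays and was not tested. On each array 71.1% to 76.7% of the 43221 probes gave a Cy3 signal well above background, and the median spot was 2.36 to 3.38 times the background. The 5 red cell markers were at 6.74 to 7.58 in LWDL and 6.78 to 7.57 in LWDM pigs. Arrays of the same breed type correlated at 0.975 to 0.981 and arrays of different breed types at 0.956 to 0.968.

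Breed type was the main axis of variation in these arrays. The first principal component, with 32.2% of the variance, separated all LWDL from all LWDM pigs, and the second, with 12.5%, separated replicates 1 to 4 from the higher numbers in both breed types. Whether these 2 sets also differ in litter is not given by the labels. They lay on different slides, and each of the 4 slides held a single breed type. Slide and breed type are therefore nested, and the slide could enter the fit only as a random block.

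**Figure D1:**
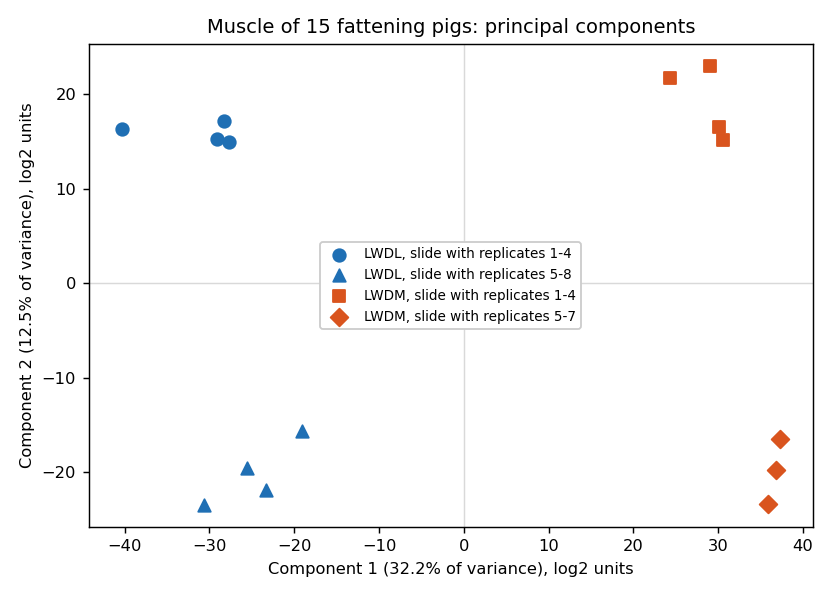
First and second principal components (percent of variance on the axes) of the 15 muscle arrays over 30365 probes with a value on every array, with 1 point per pig, coloured by breed type and marked by slide. The 8 LWDL and 7 LWDM pigs lie at opposite ends of the first component, and along the second component the slide with replicates 1 to 4 is apart from the slide with the higher numbers in both breed types.

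Of 30401 tested probes, 427 (1.4%) were called, of which 243 (0.799% of the tested probes) were higher in LWDM and 184 (0.605%) were higher in LWDL pigs. Differences of less than 2-fold were far more frequent, as 9263 probes (30.5%) passed the test, 5364 (17.6%) higher in LWDM and 3899 (12.8%) in LWDL pigs. With the slide, which is nested in breed type, as a random block, fewer passed, 3221 (10.6%) on the LWDM side and 2132 (7.01%) on the LWDL side. The median difference over all tested probes was 0.02, and the median of its absolute size was 0.17. For 207 of the called probes all values of one breed type lay above all values of the other, as they did for 8.48% of all tested probes. By the fitted difference 61 called probes were over 4-fold, 51 higher in LWDM and 10 higher in LWDL, but 45 of them were not well above background on every array. Of the 16 that were, 15 were higher in LWDM and 1 in LWDL.

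The number over 2-fold depended on the treatment of the background. With normexp correction and loess in place of the processed ratios, 143 probes were called, of which 101 (70.6%, against 56.9% in the values above) were higher in LWDM, and the 8 called probes over 4-fold were all higher in LWDM. Of the 95 called genes named here, 46 had a fold more than 1.5 times smaller in this setting, all in the same direction, and 35 of the 46 were not well above background on every array. With the slide as a random block the number over 2-fold was 374, 217 higher in LWDM and 157 higher in LWDL, of which 365 were among the 427.

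Symbols were known for 1367 of the tested probes, which stand for 1002 genes. They come from supplementary tables of the study that list probes with a difference in some tissue, so that named probes are called more often than others: of the 1068 tested probes named through the fat or the liver table, 111 (10.4%) were called. This is the background against which the counts of the gene groups below may be read. For each group the count of members named outside the muscle table is given too. A member counts as such where the fat or the liver table lists its probe, whether or not the muscle table lists it as well. Of the 175 tested genes of the groups below that were not called by their brightest probe, 6 had another probe called higher in LWDM and 4 one called higher in LWDL. By the probe with the highest Cy3 signal of each gene, 210 named genes were called, 130 with the higher mean in LWDM and 80 in LWDL.

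The genes of glucose and glycogen metabolism that differed were higher in LWDM pigs. Of 23 tested genes of this group, 12 passed the test, all higher in LWDM, and 7 of them were over 2-fold (HK2, PGM1, AMY2A, AMY2B, GYG2, PFKFB2 and PDHA1). The median difference of the group was 0.51, against 0.02 over all tested probes. Of the 19 members named outside the muscle table, 3 were called (HK2, PGM1 and GYG2), and the muscle table lists these as well. Of all probes named in this way, 27.1% passed the test on the LWDM side and 16.4% on the LWDL side (18.4% and 10.6% with the slide as a random block). In 6 of the 23 tested genes all LWDM pigs were above all LWDL pigs, as in 5.21% of all tested probes.

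HK2, the hexokinase of muscle that phosphorylates glucose on entry into the fibre, ranged from 5.40 to 6.70 (median 6.08) in LWDL pigs and from 6.74 to 8.11 (median 7.53) in LWDM pigs. The lowest LWDM pig was just above the highest LWDL pig, and the difference was 1.34 ± 0.21 (SE; 2.53-fold, adjusted p = 0.000312, limma). PGM1, which interconverts glucose 1-phosphate and glucose 6-phosphate between glycogen and glycolysis, was 3.21 to 4.67 (median 3.40) in LWDL and 4.59 to 5.03 (median 4.73) in LWDM pigs. The ranges of PGM1 overlapped through the highest LWDL pig, and the difference was 1.11 ± 0.20 (2.16-fold, adjusted p = 0.000908, limma).

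The amylase genes AMY2A and AMY2B encode starch-cleaving enzymes best known from the pancreas. AMY2A was 3.10 to 3.66 (median 3.40) in LWDL and 4.20 to 4.65 (median 4.40) in LWDM pigs, and AMY2B was 2.90 to 3.45 (median 3.29) and 4.06 to 4.57 (median 4.18). Neither gene overlapped between the breed types, and the differences were 1.02 ± 0.10 (adjusted p = 5.55e-06, limma) and 1.01 ± 0.10 (adjusted p = 6.34e-06, limma). The amylases are near-identical copies of one another, so that their probes may share transcripts. Both lay near the 2-fold limit, and AMY2A was at 0.98 to 1.00 without LWDL replicate 2 or 4 or LWDM replicate 1, 4 or 5, and AMY2B at 0.96 to 1.00 without LWDL replicate 4 or LWDM replicate 1, 5 or 7.

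GYG2 encodes a glycogenin, the protein primer on which glycogen is built. It was -3.23 to -1.58 (median -2.23) in LWDL and -1.59 to -0.93 (median -1.38) in LWDM pigs, with signal well above background on 6 of 8 LWDL and all 7 LWDM arrays and a difference of 1.01 ± 0.21 (adjusted p = 0.00253, limma). The difference of GYG2 was 0.39 with normexp and loess. Without LWDL replicate 5, 6 or 7 or LWDM replicate 2 or 4 its difference was 0.88 to 0.98. PFKFB2, which makes and degrades the activator of phosphofructokinase that speeds glycolysis, was -2.22 to -1.04 (median -1.38) in LWDL and -0.24 to 0.63 (median -0.05) in LWDM pigs. The breed types did not overlap for PFKFB2, and the difference was 1.49 ± 0.17 (adjusted p = 3.16e-05, limma), with 7 of 8 LWDL and all 7 LWDM arrays well above background. With normexp and loess it was 0.59 (adjusted p = 0.0011, limma).

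Pyruvate dehydrogenase, the mitochondrial complex that turns the product of glycolysis into acetyl-CoA, was higher in LWDM pigs in both subunits of its first enzyme. PDHA1 was 0.12 to 0.85 (median 0.47) in LWDL and 1.28 to 2.27 (median 1.53) in LWDM pigs, with no overlap and a difference of 1.17 ± 0.15 (2.25-fold, adjusted p = 5.75e-05, limma). PDHB differed by 0.49 ± 0.08 (1.40-fold, adjusted p = 0.000417, limma), also with no overlap. Smaller differences were those of NHLRC1, the ubiquitin ligase malin that acts on glycogen-bound proteins (0.81), PPP1R3B, which targets protein phosphatase 1 to glycogen (0.69), and SLC37A4, the glucose 6-phosphate transporter of the endoplasmic reticulum (0.59), all of which passed the test, PPP1R3B not with the slide as a random block (adjusted p = 0.157, limma). With normexp and loess 13 genes of the group passed the test, all higher in LWDM, and 3 were over 2-fold (HK2, AMY2A and AMY2B). In one fit over the muscle arrays of all ages, which share one estimate of the spread, HK2 (adjusted p = 0.183, limma), PGM1 (0.154), AMY2A (0.0524) and AMY2B (0.058) did not pass the test. The starch and sucrose list of the study (PGM1, HK2, AMY2B, AMY2A) was chosen on these samples and is thus not independent of these values.

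**Figure D2:**
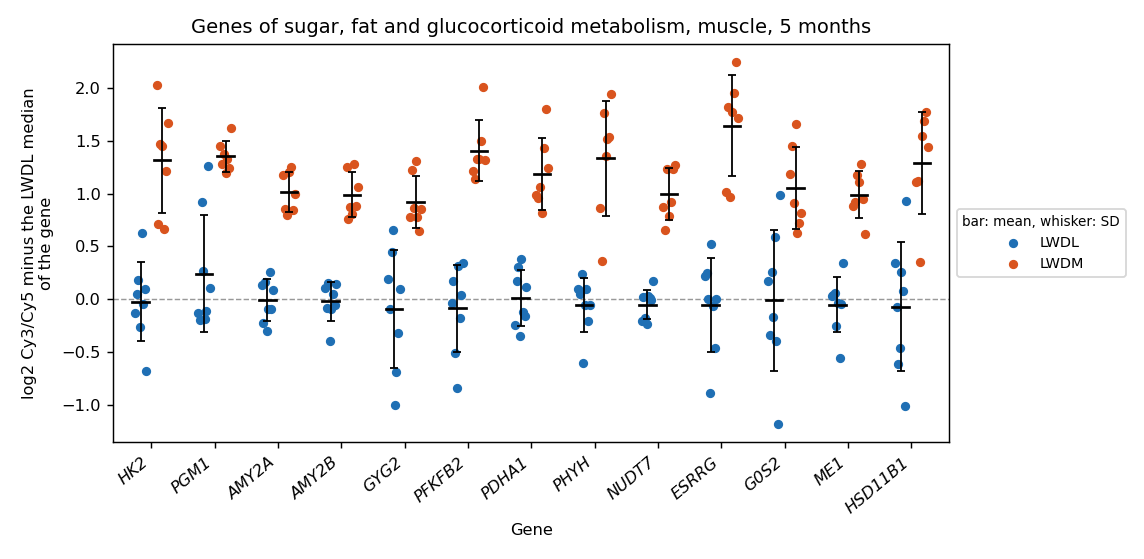
Log2 ratio of each pig minus the LWDL median of the gene, for 13 genes of glucose, fatty acid and steroid metabolism in muscle at 5 months, with 1 point per pig, bars for the means and whiskers for the SD (8 LWDL and 7 LWDM pigs). The LWDM mean is above the LWDL mean for every gene shown, from 1.01 (GYG2) to 1.69 (ESRRG) apart, and the points of the breed types overlap for PGM1, GYG2, G0S2 and HSD11B1.

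Genes of fatty acid oxidation that differed were also higher in LWDM pigs. Of 11 tested genes 8 passed the test, all higher in LWDM (72.7%, against 27.1% of the probes named outside the muscle table), and the median difference was 0.67. In 5 of the 11 all LWDM pigs were above all LWDL pigs, as in 5.21% of all tested probes. Of the 10 members named outside the muscle table, 2 were called (NUDT7 and ESRRG), and the muscle table lists these as well.

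ESRRG, a nuclear receptor that drives oxidative metabolism genes in muscle, was -0.64 to 0.77 (median 0.25) in LWDL and 1.22 to 2.49 (median 2.02) in LWDM pigs. All LWDM pigs were above all LWDL pigs, and the difference was 1.69 ± 0.22 (3.23-fold, adjusted p = 7.63e-05, limma). PHYH, the peroxisomal enzyme that starts the breakdown of phytanic acid, was -3.26 to -2.42 (median -2.66) in LWDL and -2.30 to -0.72 (median -1.15) in LWDM pigs. Its difference was 1.39 ± 0.20 (2.62-fold, adjusted p = 0.000177, limma), and 1 of its 3 other tested probes was called as well.

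NUDT7, a peroxisomal hydrolase of coenzyme A, was -2.55 to -2.15 (median -2.32) in LWDL and -1.66 to -1.04 (median -1.40) in LWDM pigs, again with no overlap. The difference was 1.05 ± 0.10 (adjusted p = 4.84e-06, limma), with both other probes called and a value of 1.00, just under 2-fold, without LWDM replicate 7. Smaller differences that passed the test included those of ECI2, an isomerase for unsaturated fatty acids (0.84), the acyl-CoA dehydrogenase ACADSB (0.79), FABP3, the fatty acid carrier of muscle (0.45), and CPT2, which hands acyl groups to the mitochondrial matrix (0.44). With the slide as a random block 6 of the 11 passed, and FABP3 (adjusted p = 0.0827, limma) and CPT2 (0.0962) did not. With normexp and loess the same number of genes passed the test and 2 (PHYH and ESRRG) were over 2-fold.

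In the group for lipid storage and synthesis, 7 of 18 tested genes passed the test, all higher in LWDM, and 2 of them were called. The median difference was 0.30, and none of the 16 members named outside the muscle table was called. G0S2, an inhibitor of the triglyceride lipase ATGL, was -1.89 to 0.28 (median -0.71) in LWDL and -0.08 to 0.95 (median 0.20) in LWDM pigs, and the ranges overlapped. Its difference was 1.06 ± 0.26 (2.09-fold, adjusted p = 0.00733, limma) and lay at 0.89 to 1.00 without LWDL replicate 7 or LWDM replicate 2 or 4. ME1, the malic enzyme that supplies NADPH for fatty acid synthesis, was 1.91 to 2.81 (median 2.46) in LWDL and 3.08 to 3.74 (median 3.41) in LWDM pigs, with no overlap. Its difference was 1.04 ± 0.12 (2.06-fold, adjusted p = 2.79e-05, limma), and 0.97 to 0.99 without LWDL replicate 6 or LWDM replicate 5.

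Further genes of lipid handling passed the test just under 2-fold. ANGPTL4, a secreted inhibitor of lipoprotein lipase, differed by 1.00 ± 0.25 (adjusted p = 0.00769, limma), and 2 of its 3 other probes were called. FABP5, a fatty acid carrier of fat and skin, differed by 0.97 and SCD, which makes monounsaturated fatty acids, by 0.93 (adjusted p = 0.0449, limma, and 0.128 with the slide as a random block), while none of the 4 other probes of SCD passed the test. GPAM, the first enzyme of triglyceride synthesis, differed by 0.72 with no overlap. LEP (leptin), the hormone of adipocytes, was not tested, since it was well above background on 2 of 8 LWDL and 6 of 7 LWDM arrays. The adipocyte markers given above were at the same time 3.93 to 4.26 in LWDL and 4.22 to 4.53 in LWDM pigs, and their part in these differences was not tested.

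Enzymes of steroid and retinoid metabolism differed in both directions. HSD11B1, which regenerates active cortisol from cortisone inside cells, was -6.12 to -4.18 (median -5.11) in LWDL and -4.75 to -3.34 (median -3.67) in LWDM pigs. The ranges overlapped, the difference was 1.36 ± 0.26 (2.56-fold, adjusted p = 0.00156, limma), and its 4 other probes were all called with differences of 1.35 to 1.37. AKR1C2, a reductase of steroid hormones, differed by 0.90 with no overlap. RBP5, a cellular retinol-binding protein, was -6.46 to -5.49 (median -5.99) in LWDL and -5.58 to -3.44 (median -4.97) in LWDM pigs, with a slight overlap and a difference of 1.16 ± 0.24 (adjusted p = 0.00252, limma) that was 0.92 without LWDM replicate 2.

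CYP26B1, the enzyme that degrades retinoic acid, was lower in LWDM pigs. It was -3.81 to -2.76 (median -3.31) in LWDL and -5.18 to -3.68 (median -4.59) in LWDM pigs, where 2 of 7 arrays were well above background. The ranges overlapped slightly, the difference was -1.25 ± 0.21 (adjusted p = 0.000546, limma), and with normexp and loess it was -0.21 (adjusted p = 0.0866). Of the 9 tested genes of this group, 3 passed the test higher in LWDM and 1 in LWDL, with a median of 0.06. Of the 6 members named outside the muscle table, 1 was called.

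Among the contractile proteins, 13 of 27 tested genes of the sarcomere and muscle fibre passed the test and all were higher in LWDM, but the differences were small, with a median of 0.25. With the slide as a random block 7 of the 27 passed, all higher in LWDM. ACTA1, the skeletal muscle actin, differed by 0.40 ± 0.12 (adjusted p = 0.0165, limma, and 0.0732 with the slide as a random block) with no overlap between the breed types. MYH7, the slow-twitch myosin heavy chain, differed by 0.42 ± 0.11 (adjusted p = 0.00917, limma). CA3, the carbonic anhydrase of slow fibres, differed by 0.76 ± 0.18 (adjusted p = 0.00477, limma). With the Cy3 channel alone, without the ratio to the liver pool, 3 genes of this list passed the test higher in LWDM and 1 in LWDL, and the median was 0.06. NEB (nebulin), the ruler protein of the thin filament, differed by 0.14 (adjusted p = 0.539, limma) by its brightest probe, but 1 of its 2 other probes was called higher in LWDL with no overlap (-1.29, adjusted p = 7.4e-06, limma).

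The called gene of this list was POPDC2, a membrane protein of striated muscle that binds cyclic AMP, and none of the 25 members named outside the muscle table was called. It was 3.21 to 4.82 (median 3.96) in LWDL and 4.25 to 5.87 (median 4.68) in LWDM pigs, and the ranges overlapped. Its difference was 1.06 ± 0.28 (adjusted p = 0.00979, limma), with an adjusted p of 0.0545 with the slide as a random block and a difference of 0.91 to 0.97 without LWDL replicate 2 or 5 or LWDM replicate 3 or 5.

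More genes of the extracellular matrix were lower than higher in LWDM pigs. Of 25 tested genes, 11 passed the test higher in LWDL and 3 higher in LWDM, and the median difference was -0.38. Of the 8 called genes, 7 were higher in LWDL (COL1A2, POSTN, THBS1, ABI3BP, LEPRE1, GPC6 and TNFAIP6) and 1 was higher in LWDM (EGFL6). Of the 17 members named outside the muscle table, 2 were called. In 5 of the 25 tested genes all LWDL pigs were above all LWDM pigs, as in 3.27% of all tested probes.

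POSTN (periostin), a matrix protein of fibroblasts in growing and healing tissue, was -5.57 to -2.66 (median -3.40) in LWDL and -6.34 to -4.12 (median -5.29) in LWDM pigs. The lowest LWDL pig, replicate 8, was among the LWDM values, and the difference was -1.62 ± 0.41 (adjusted p = 0.00833, limma), with the other probe called in the same direction. COL1A2, a chain of type I collagen, was 1.73 to 2.70 (median 2.29) in LWDL and -1.42 to 2.02 (median 1.43) in LWDM pigs. The ranges of COL1A2 overlapped, its probe was well above background on 4 of 7 LWDM arrays, and the difference was -1.51 ± 0.42 (adjusted p = 0.0137, limma).

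THBS1 (thrombospondin 1), which activates TGF-beta, was 0.62 to 1.43 (median 1.05) in LWDL and -1.34 to 0.47 (median 0.18) in LWDM pigs, with 6 of 7 LWDM arrays well above background. The breed types did not overlap, and the difference of -1.05 ± 0.23 (adjusted p = 0.00296, limma) was -0.84 to -0.99 without LWDL replicate 4 or LWDM replicate 5. LEPRE1, a prolyl hydroxylase that modifies collagen in the endoplasmic reticulum, was 1.46 to 2.22 (median 1.88) in LWDL and 0.14 to 1.13 (median 0.74) in LWDM pigs, 5 of them well above background. Its difference was -1.12 ± 0.16 (adjusted p = 0.000168, limma), again with no overlap.

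ABI3BP, a matrix protein that binds the adaptor ABI3, and GPC6, a heparan sulphate proteoglycan of the cell surface, were well above background on all 8 LWDL arrays and on none of the 7 LWDM arrays. ABI3BP was 2.74 to 3.52 (median 3.05) in LWDL and 0.00 to 2.59 (median 1.88) in LWDM pigs, and the fitted difference was -1.53 ± 0.29 (adjusted p = 0.00141, limma). Because the LWDM side is only a bound, ABI3BP was at least 1.19-fold higher in LWDL pigs. GPC6 was -2.16 to -0.54 (median -1.39) in LWDL and -4.46 to -1.99 (median -2.97) in LWDM pigs, with a slight overlap, a fitted difference of -1.81 ± 0.39 (adjusted p = 0.00287, limma) and a bound of at least 1.32-fold. These bounds come from the Cy3 channel, and no dyes were exchanged, so that any dye bias is in the values of both breed types.

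TNFAIP6, a hyaluronan-binding protein of inflamed tissue, was 5.34 to 7.38 (median 5.88) in LWDL and 4.40 to 5.91 (median 4.93) in LWDM pigs, and the ranges overlapped. Its difference of -1.08 ± 0.30 (adjusted p = 0.014, limma) had an adjusted p of 0.0689 with the slide as a random block and was -0.90 to -0.98 without LWDL replicate 3 or 6 or LWDM replicate 5. NID1 (nidogen), a basement membrane protein, differed by -0.84 ± 0.10 with no overlap, and LOX, which cross-links collagen, by -0.73 ± 0.20. EGFL6, a secreted protein with EGF repeats, was 2.57 to 4.09 (median 3.05) in LWDL, with 6 of 8 arrays well above background, and 3.78 to 5.35 (median 4.56) in LWDM pigs. The ranges overlapped, and it differed by 1.34 ± 0.26 (adjusted p = 0.00159, limma), opposite to the other called genes of the matrix. With normexp and loess the counts of matrix genes that passed the test were the same, 11 and 3, but POSTN alone remained over 2-fold. With the slide as a random block 9 passed higher in LWDL and 1 higher in LWDM, and 6 and 1 were called.

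**Figure D3:**
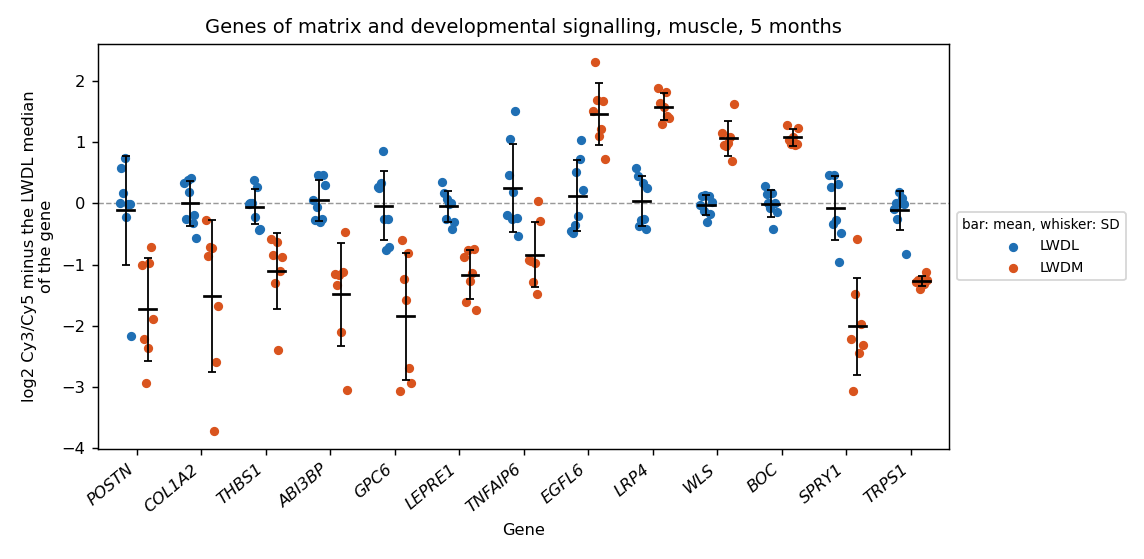
Log2 ratio of each pig minus the LWDL median of the gene, for the 8 called extracellular matrix genes and 5 genes of developmental signalling, with 1 point per pig, bars for the means and whiskers for the SD (8 LWDL and 7 LWDM pigs). POSTN, COL1A2, THBS1, ABI3BP, GPC6, LEPRE1, TNFAIP6, SPRY1 and TRPS1 have the LWDM mean below the LWDL mean, by 1.05 (THBS1) to 1.94 (SPRY1), and EGFL6, LRP4, WLS and BOC have it above.

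Developmental signalling genes were called in both directions, 8 higher in LWDM (NOG, WLS, ZNRF3, CTNNBIP1, BOC, HOXA10, BARX2 and LRP4) and 4 higher in LWDL (SPRY1, TRPS1, MKX and NTN4) of 22 tested. Of the 11 members named outside the muscle table, 1 was called, and the median difference was 0.35. Several of them act in the Wnt pathway. LRP4, a receptor at the neuromuscular junction that also restrains Wnt signalling, was -1.28 to -0.29 (median -0.87) in LWDL and 0.42 to 1.02 (median 0.71) in LWDM pigs, with a difference of 1.54 ± 0.16 (2.90-fold, adjusted p = 1.19e-05, limma). WLS, the carrier that Wnt proteins need for secretion, was 0.09 to 0.53 (median 0.39) and 1.08 to 2.01 (median 1.37), with a difference of 1.09 ± 0.11 (adjusted p = 1.04e-05, limma), which was 1.00 without LWDM replicate 7. Neither gene overlapped between the breed types.

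The inhibitors ZNRF3, a ubiquitin ligase that removes Wnt receptors, and CTNNBIP1, which binds beta-catenin, differed by 1.12 ± 0.16 and 1.33 ± 0.24. BOC, a co-receptor for hedgehog that promotes the differentiation of myoblasts, was 2.98 to 3.69 (median 3.40) in LWDL and 4.36 to 4.68 (median 4.43) in LWDM pigs, with no overlap and a difference of 1.08 ± 0.09 (adjusted p = 2.26e-06, limma). NOG (noggin), a secreted BMP antagonist, differed by 1.13 ± 0.23 and by 0.95 without LWDL replicate 3. The homeobox genes HOXA10 and BARX2 differed by 1.92 ± 0.43, with no overlap, and by 1.22 ± 0.30, with BARX2 well above background on 6 of 8 LWDL arrays.

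SPRY1, an inhibitor of FGF signalling that keeps muscle satellite cells quiescent, was 1.25 to 2.68 (median 2.22) in LWDL and -0.85 to 1.63 (median -0.01) in LWDM pigs, where 2 of 7 arrays were well above background. Its difference was -1.94 ± 0.31 (adjusted p = 0.00041, limma), with an overlap of the ranges. TRPS1, a GATA-type repressor, was 2.38 to 3.39 (median 3.20) in LWDL and 1.80 to 2.09 (median 1.95) in LWDM pigs, with no overlap and a difference of -1.16 ± 0.12 (adjusted p = 8.94e-06, limma). MKX, a homeobox gene of tendon, differed by -1.12 ± 0.24, with 3 of 7 LWDM arrays well above background. NTN4, a netrin of basement membranes, differed by -1.11 ± 0.27, by -0.97 to -1.00 without LWDL replicate 4 or 6, and by -0.42 (adjusted p = 0.073, limma) with normexp and loess. With normexp and loess 4 genes of the group were over 2-fold, all higher in LWDM.

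**Figure D4:**
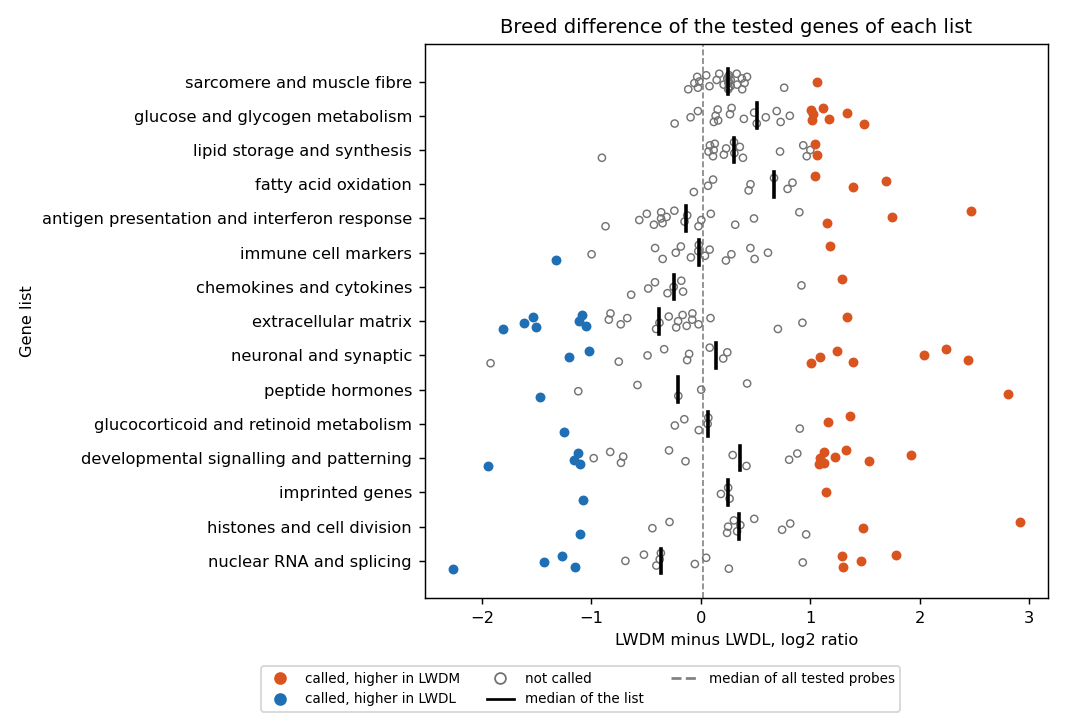
Difference between LWDM and LWDL pigs (log2) of every tested gene in 15 gene groups, with called genes in orange (higher in LWDM) or blue (higher in LWDL), other genes as open points, a black bar for the median of the group and a dashed line for the median of all tested probes. The medians of glucose and glycogen metabolism (0.51) and fatty acid oxidation (0.67) lie to the LWDM side and those of the extracellular matrix (-0.38) and nuclear RNA and splicing (-0.37) to the LWDL side.

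Class II histocompatibility genes were higher in LWDM pigs, while the called macrophage markers went in both directions. HLA-DRB1, which presents peptides to helper T cells, was -1.11 to 1.23 (median -0.51) in LWDL, with 1 of 8 arrays well above background, and 1.17 to 3.19 (median 1.96) in LWDM pigs. The highest LWDL pig, replicate 8, was just above the lowest LWDM pig, and the difference was 2.47 ± 0.35 (adjusted p = 0.00015, limma). HLA-DQA1 was -3.88 to 0.10 (median -0.71), with 5 of 8 arrays well above background, and -0.40 to 1.33 (median 0.52), with a difference of 1.74 ± 0.56 (adjusted p = 0.0284, limma). OAS1, an interferon-induced sensor of double-stranded RNA, was -1.10 to 1.44 (median -0.16) in LWDL and 0.54 to 2.04 (median 0.99) in LWDM pigs, with overlap and a difference of 1.15 ± 0.35 (adjusted p = 0.022, limma).

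HLA-DQA1 and OAS1 did not pass the test under every setting. With the slide as a random block their adjusted p values were 0.108 and 0.09. Without LWDM replicate 2, 6 or 7 the difference of HLA-DQA1 was 1.60 to 1.67, with an adjusted p of up to 0.0563, and without LWDL replicate 8 that of OAS1 was 0.99.

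The class I gene HLA-B differed by -0.56 ± 0.12 (adjusted p = 0.00314, limma) and TAP2, a subunit of the peptide transporter, by 0.90 ± 0.23 (adjusted p = 0.00823, limma). The histocompatibility genes belong to a polymorphic multigene family, so that signal may be shared or lost between copies and alleles. Of the 20 tested genes of antigen presentation and interferon response, 4 passed the test on the LWDM side and 1 on the LWDL side (2 and 1 with the slide as a random block), the median was -0.14, and 1 of 15 members named outside the muscle table was called. The interferon-gamma list of the study, chosen on these samples, had 3 of its 4 tested genes called, all higher in LWDM (1 with the slide as a random block), and TRIM26 was not tested.

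Among 17 tested immune cell genes the macrophage receptors differed in opposite directions. CD163, the haemoglobin scavenger receptor of tissue macrophages, was -2.65 to -0.98 (median -1.91) in LWDL and -3.71 to -2.57 (median -3.21) in LWDM pigs, with a slight overlap and a difference of -1.33 ± 0.23 (adjusted p = 0.00078, limma). EMR1, the receptor known as F4/80, was -1.93 to 0.00 (median -0.63) in LWDL, with 2 of 8 arrays well above background, and -0.11 to 1.02 (median 0.36) in LWDM pigs, with overlap and a difference of 1.18 ± 0.27 (adjusted p = 0.00472, limma). MS4A7, another macrophage gene, differed by -1.00 ± 0.25. In this group 2 genes passed the test in each direction, the median was -0.02, and 1 of 13 members named outside the muscle table was called. The level of the 5 immune cell markers was -2.55 to -1.40 in LWDL and -3.05 to -1.71 in LWDM pigs. Of the 5, 3 were well above background on all 15 arrays, and their part in the class II values was not tested.

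Among 9 tested chemokines and cytokines, 2 passed the test in each direction and the median was -0.25, and none of the 8 members named outside the muscle table was called. The called gene was TNFRSF11B (osteoprotegerin), the decoy receptor for RANKL, at 2.43 to 3.60 (median 3.16) in LWDL and 3.78 to 4.57 (median 4.48) in LWDM pigs. All LWDM pigs were above all LWDL pigs, with a difference of 1.29 ± 0.18 (2.44-fold, adjusted p = 0.000123, limma). Of 8 tested endothelial markers, 3 passed the test in each direction, among them FLT1, a VEGF receptor (-1.25 ± 0.28, with 4 of 7 LWDM arrays well above background), PECAM1, a junction protein of endothelium (-1.00 ± 0.26), and the adhesion receptor ELTD1 (1.01 ± 0.24). ELTD1 was at 0.85 to 1.00 without any 1 of LWDL replicates 2, 3, 4 and 6 and LWDM replicates 2, 4, 5, 6 and 7. The level of the 9 endothelial markers was 1.20 to 1.66 in LWDL and 0.90 to 2.07 in LWDM pigs.

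Genes known from neurons and synapses were called in both directions, 7 higher in LWDM and 2 higher in LWDL of 18 tested, with a median of 0.14 and 1 call among the 9 members named outside the muscle table. With the slide as a random block 6 passed the test higher in LWDM and 1 in LWDL, in place of 7 and 4. CHRNA9, a subunit of nicotinic acetylcholine receptors, was -2.31 to 0.03 (median -1.08) in LWDL, with 7 of 8 arrays well above background, and 0.17 to 2.62 (median 1.48) in LWDM pigs. The ranges did not overlap, and the fitted difference was 2.44 ± 0.39 (adjusted p = 0.000375, limma), and 1.33 with normexp and loess. CADM1, an adhesion molecule of synapses and epithelia, was -3.56 to -2.16 (median -3.27) in LWDL and -1.40 to -0.30 (median -1.06) in LWDM pigs. It differed by 2.04 ± 0.23 (4.11-fold, adjusted p = 2.21e-05, limma), with no overlap and both other probes called.

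UCHL1, a deubiquitinase abundant in neurons, was 1.39 to 2.50 (median 2.17) in LWDL and 2.97 to 4.06 (median 3.09) in LWDM pigs, with a difference of 1.24 ± 0.20 (2.37-fold, adjusted p = 0.000339, limma). PANX2, a pannexin channel protein, was -1.46 to -0.66 (median -1.04) in LWDL and 0.04 to 0.69 (median 0.38) in LWDM pigs, with a difference of 1.42 ± 0.12 (2.67-fold, adjusted p = 2.26e-06, limma). Neither of them overlapped. Both stand with HK2 in the ischemia list of the study, which was chosen on these samples, and whose other gene RNLS was not tested.

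Other neuronal genes were higher in LWDM as well. LGI1, a secreted synaptic protein, differed by 1.39 ± 0.30 and RAB3B, a GTPase of secretory vesicles, by 1.08 ± 0.19, each with 4 of 8 LWDL arrays well above background and no overlap. RGS7, a regulator of G protein signalling, differed by 1.01 ± 0.29, with an adjusted p of 0.0743 with the slide as a random block. Without LWDM replicate 3, RAB3B was at 0.95, and without any 1 of LWDL replicates 2 to 6 and LWDM replicates 2, 4, 5 and 6, RGS7 was at 0.90 to 1.00.

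NTRK2, the receptor for the neurotrophin BDNF, was lower in LWDM pigs. It was 5.04 to 5.27 (median 5.22) in LWDL and 3.91 to 4.56 (median 4.12) in LWDM pigs, with no overlap, and 2 of its 3 other probes were called in the same direction. The difference was -1.02 ± 0.08 (adjusted p = 5.49e-07, limma), and -0.98 without LWDM replicate 7. CNTN3, a contactin of neurons, differed by -1.20 ± 0.39 (adjusted p = 0.0286, limma), with 2 of 7 LWDM arrays well above background. Its adjusted p was 0.1 with the slide as a random block, 0.0626 with normexp and loess, and up to 0.0603 without 1 of LWDL replicates 6 and 7 and LWDM replicates 1, 2, 3 and 6, where it differed by -1.05 to -1.15. The 6 nerve and Schwann cell markers had a level of -2.14 to -1.79 in LWDL and -2.04 to -1.63 in LWDM pigs, with STMN2 well above background on no array. Of the 3 tested markers 1 was called, CNP of myelin, higher in LWDM by 1.06 ± 0.15 (0.97 without LWDL replicate 5). The part of the nerve and Schwann cell markers in the neuronal values was not tested.

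Of 7 tested peptide hormone genes 2 passed the test higher in LWDM and 1 in LWDL, with a median of -0.21 and no call among the 4 named outside the muscle table. CHGB (chromogranin B), a protein of secretory granules, was -0.81 to 1.28 (median 0.42) in LWDL, where 1 of 8 arrays was well above background, and 0.95 to 5.41 (median 2.99) in LWDM pigs. The fitted difference, against a group mostly at background, was 2.80 ± 0.55 (adjusted p = 0.0017, limma), with a slight overlap. RLN2 (relaxin) was 3.57 to 5.81 (median 4.37) in LWDL and 2.44 to 3.64 (median 2.94) in LWDM pigs, which overlapped slightly, and differed by -1.47 ± 0.32 (adjusted p = 0.00321, limma). IGF1, the growth factor that promotes muscle growth, differed by 0.42 ± 0.09 with no overlap.

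Several genes of the nucleus showed clear separation. MLF1IP, a centromere protein also called CENPU, was 0.15 to 0.63 (median 0.48) in LWDL and 2.83 to 3.66 (median 3.44) in LWDM pigs. The highest LWDL pig was far below the lowest LWDM pig, and the difference was 2.92 ± 0.11 (7.55-fold, adjusted p = 1.41e-10, limma). XIST, the long RNA that silences one X chromosome in females, was -1.18 to -0.59 (median -0.96) in LWDL and -2.78 to -2.14 (median -2.43) in LWDM pigs, all of them female. It differed by -1.43 ± 0.10 (2.70-fold, adjusted p = 1.96e-07, limma), with no overlap.

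NEAT1, the long RNA that builds paraspeckles, was -1.54 to -0.11 (median -0.53) in LWDL and 0.24 to 1.56 (median 0.55) in LWDM pigs, with a difference of 1.29 ± 0.21 (adjusted p = 0.000496, limma). HNRNPA3, an RNA-binding protein of the nucleus, was -1.40 to 0.23 (median -0.09) and 0.90 to 2.61 (median 1.52), with a difference of 1.78 ± 0.25 (3.44-fold, adjusted p = 0.000167, limma). Both were separated between the breed types, as was SNRNP35, a protein of the minor spliceosome (1.30 ± 0.09). MBNL2, a splicing regulator of the muscleblind family, was higher in LWDL pigs at 2.00 to 2.70 (median 2.28) against 0.81 to 1.34 (median 1.02), with a difference of -1.27 ± 0.11 (adjusted p = 2.88e-06, limma).

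Of 17 tested genes of nuclear RNA and splicing, 5 passed the test higher in LWDM and 8 in LWDL, with a median of -0.37, and 4 were called in each direction. Of the 9 members named outside the muscle table, 5 were called. The other called genes were RAVER2, a splicing co-regulator (1.47 ± 0.26, with 2 of 8 LWDL arrays well above background), SNRPA1, a protein of the U2 particle (-2.26 ± 0.57, with 3 of 7 LWDM arrays), and HNRPLL, which controls alternative splicing in lymphocytes (-1.15 ± 0.20, with 4 of 7). Of 14 tested genes of histones and cell division, 7 passed the test higher in LWDM and 2 in LWDL, with a median of 0.35 and 1 call among the 11 named outside the muscle table. The called ones besides MLF1IP were HIST1H2BE, a core histone (1.48 ± 0.33), and MYBL1, a transcription factor of the MYB family (-1.10 ± 0.24, with 3 of 7 LWDM arrays well above background). Without LWDL replicate 7 or LWDM replicate 3 the difference of MYBL1 was -0.93 to -1.00, and with normexp and loess it was -0.18 (adjusted p = 0.078, limma).

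Of 5 tested genes that are imprinted in mammals, 1 was called in each direction, and 2 passed the test higher in LWDM and 1 in LWDL, with a median of 0.25 and 1 call among the 4 named outside the muscle table. DIRAS3, a growth-inhibiting GTPase, was -0.74 to 0.69 (median -0.04) in LWDL and 0.60 to 1.97 (median 1.04) in LWDM pigs, with overlap and a difference of 1.15 ± 0.24 (adjusted p = 0.00262, limma). PLAGL1, a zinc finger factor that restrains growth, was 1.38 to 2.08 (median 1.94) in LWDL and 0.40 to 1.42 (median 0.70) in LWDM pigs. The ranges overlapped slightly, and it differed by -1.08 ± 0.16 (adjusted p = 0.000215, limma).

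Of the 15 named genes with the largest separated differences higher in LWDM, 7 were well above background on at most 3 of the 8 LWDL arrays. AFP (alpha-fetoprotein), a plasma protein of fetal liver, was -6.81 to -3.30 (median -5.61) in LWDL and -2.00 to 0.14 (median -0.98) in LWDM pigs. With 1 of 8 LWDL and all 7 LWDM arrays well above background, the fitted difference of 4.53 ± 0.50 (adjusted p = 1.81e-05, limma) is set against a group mostly at background, and with normexp and loess it was 1.74. The hepatocyte markers did not separate the breed types. OAZ3, an antizyme known from the testis that restrains polyamine synthesis, was -4.34 to -2.72 (median -3.51) in LWDL and -0.01 to 1.01 (median 0.69) in LWDM pigs. No LWDL array was well above background, and OAZ3 was at least 2.27-fold higher in LWDM pigs, with a fitted difference of 4.12 ± 0.22 (adjusted p = 1.52e-08, limma), which was 1.27 with normexp and loess.

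GJB2 (connexin 26), a gap junction protein of epithelia, was -1.72 to 0.19 (median -0.94) in LWDL, with 1 of 8 arrays well above background, and 1.89 to 3.69 (median 2.29) in LWDM pigs. Its fitted difference against these dim spots was 3.37 ± 0.33, and 1.10 with normexp and loess. MAN2B2, a lysosomal alpha-mannosidase, was well above background on all arrays, at 0.72 to 2.11 (median 1.06) in LWDL and 4.19 to 4.70 (median 4.55) in LWDM pigs. It differed by 3.24 ± 0.18 (9.46-fold, adjusted p = 2.07e-08, limma). C9orf9 varied little within a breed type, at -1.40 to -1.25 (median -1.37) in LWDL and 0.74 to 1.33 (median 0.93) in LWDM pigs, and differed by 2.38 ± 0.09 (5.19-fold, adjusted p = 1.5e-10, limma).

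Other genes higher in LWDM with no overlap were the ribosomal protein genes RPL32 (2.41 ± 0.56) and RPS21 (2.27 ± 0.41), for which processed copies elsewhere in the genome may share signal, and CSMD2 (1.92 ± 0.13). FAM200B (2.97 ± 0.36), the zinc finger gene ZNF644 (2.63 ± 0.24) and DSCR3 (2.11 ± 0.26) were well above background on 2 or 3 of the 8 LWDL arrays. GABPA, an ETS factor that acts on mitochondrial and neuromuscular genes, was on none of them, and was at least 1.31-fold higher in LWDM pigs, with a fitted difference of 2.31 ± 0.29. In these genes with dim LWDL spots the normexp and loess values were much smaller, such as 0.50 for GABPA and 0.69 for ZNF644.

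In the other direction, POLR3B, the second largest subunit of RNA polymerase III, was 2.08 to 3.25 (median 2.83) in LWDL and 0.61 to 1.01 (median 0.69) in LWDM pigs. It differed by -1.98 ± 0.18 (3.96-fold, adjusted p = 3.79e-06, limma), the widest separated difference among the named genes higher in LWDL with every array well above background. DIS3L2, an exonuclease for uridylated RNA, differed by -1.66 ± 0.16 with 5 of 7 LWDM arrays well above background, PLCXD2 by -1.61 ± 0.33, WDR3, a factor of ribosome assembly, by -1.53 ± 0.24, TOM1L1, an adaptor of endosomal sorting, by -1.51 ± 0.31, and CLTC, the clathrin heavy chain, by -1.41 ± 0.15. ELF2, RPL10 and LMBRD2 differed by -1.33 to -1.34. STON1-GTF2A1L (-1.49 ± 0.25) and ART4 (-1.35 ± 0.18) were well above background on 1 and 3 of 7 LWDM arrays. ZNF335 differed by -1.57 ± 0.42, with 6 of 7 LWDM arrays well above background and LWDM replicate 5 at -3.76, and by -1.11 without that animal.

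Probes without a symbol held the widest differences. AGPOA3-28716 was 0.00 to 1.63 in LWDL and 5.63 to 6.03 in LWDM pigs, a fitted difference of 5.38 ± 0.23 (adjusted p = 7.88e-10, limma), and AGPOA3-29722 was listed at 0.00 in all 8 LWDL pigs and was 4.73 to 5.32 in LWDM pigs. Neither was well above background on any LWDL array, and by the Cy3 channel AGPOA3-29722 was at least 24.9-fold higher in LWDM pigs. For AGPOA3-28716 the bound computed from the Cy3 channel lay above the fitted ratio and is not used. In the opposite direction AGPOA3-13495 (-2.94 ± 0.16) was well above background on no LWDM array and was at least 1.34-fold higher in LWDL pigs, and AGPOA3-28070 differed by -2.81 ± 0.73 with 3 of 7 LWDM arrays well above background.

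Some called genes lie side by side in the pig genome. Of the 210 called genes, 145 were found in the Sscrofa11.1 annotation, and 9 pairs of them were within 5 genes of each other. HSD11B1 and G0S2 are direct neighbours and were both higher in LWDM, as were WLS and DIRAS3 (1.09 and 1.15). CHRNA9 and UCHL1 are 4 genes apart and HLA-DRB1 and HLA-DQA1 are 2 apart, all higher in LWDM. The direct neighbours MGARP, a mitochondrial transport protein, and ELF2 differed in opposite directions (1.04 and -1.34), MGARP being at 0.93 to 0.98 without LWDL replicate 1 or 4 or LWDM replicate 3, 6 or 7. The number of such pairs was not compared with other sets of genes.

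The same contrast was made in the muscle of 85-day-old fetuses (6 LWDL and 6 LWDM) and in the liver of the fattening pigs. Of the 427 probes, 315 were tested in fetal muscle, where 446 of 29582 probes (1.51%) were called. Of these 315, 59 (18.7%) were called there in the same direction and 6 in the opposite one, and the 59 were 16.7% of the 353 fetal calls tested at 5 months. In liver, where 704 of 32099 probes (2.19%) were called, 313 of the 427 were tested, 97 (31%) were called in the same direction and 4 in the opposite one, and the 97 were 20.1% of the 483 liver calls tested in muscle. Muscle and liver came from the same animals.

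The difference between the contrasts was tested as an interaction. The contrast at 5 months differed from that in the fetus for 4555 of 31921 probes (14.3%) and from that in liver for 7202 of 33570 (21.5%). Among the 427 probes these were 194 and 184, but the 427 were chosen on a contrast that enters the test, so nothing is read from these counts. They also include probes that were dim in the fetus or the liver, where the interaction mostly restates the contrast in muscle, and interactions of single genes are given only where both contrasts were tested and, in muscle at 5 months, 6 or more arrays of each breed type were well above background.

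**Figure D5:**
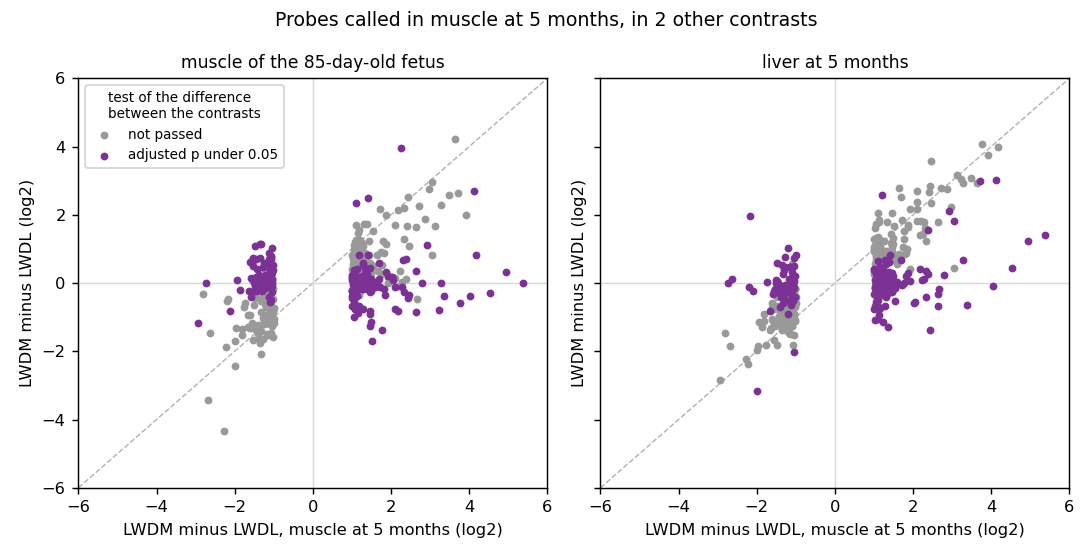
Difference between LWDM and LWDL pigs (log2) of the 427 called probes in muscle at 5 months (x axis) against the difference of the same probes in fetal muscle (left) and in liver at 5 months (right), with probes whose interaction passed the test in purple. In fetal muscle 194 and in liver 184 of the 427 probes passed, many of them near 0 on the y axis, and others lie close to the diagonal in both panels.

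Some genes held their direction across all 3 contrasts. A set of 36 probes was called in muscle at 5 months, in fetal muscle and in liver in the same direction, 19 higher in LWDM and 17 in LWDL, and 16 genes were named among them. MLF1IP differed by 2.92 in muscle at 5 months, 1.12 in fetal muscle and 2.10 in liver. The fitted differences of OAZ3, which is dim in LWDL muscle, were 4.12, 2.71 and 3.01, and those of XIST were -1.43, -1.28 and -1.07. PGM1 was the one enzyme of glucose metabolism in this set, at 1.11, 2.35 and 1.01, with a larger difference in the fetus than at 5 months (interaction -1.24, adjusted p = 0.0476, limma, and 0.0926 with the Cy3 channel alone).

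Some other metabolic genes, picked in the same way as the interactions listed further below, had contrasts that differed between the ages or tissues. The contrast at 5 months was above that in the fetus by 1.57 for ESRRG (adjusted p = 0.00156, limma), by 1.44 for GYG2 (adjusted p = 0.00267, limma) and by 1.22 for AMY2A (adjusted p = 0.000347, limma). It was above that in liver by 1.59 for HSD11B1 (adjusted p = 0.000258, limma), by 1.09 for NUDT7 (adjusted p = 3.19e-07, limma) and by 1.16 for AMY2A (adjusted p = 2.74e-06, limma). ANGPTL4 was higher in LWDM muscle and lower in LWDM liver (1.00 against -1.04, interaction 2.04, adjusted p = 1.13e-05, limma).

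The contrasts of POSTN, NID1, NTRK2 and LRP4, picked after their values were seen, differed between the ages. POSTN was lower in LWDM pigs at 5 months (-1.62), while in the fetus it differed by 0.63, an interaction of -2.25 (adjusted p = 0.00579, limma). NID1 was lower in LWDM at both ages, by 0.84 at 5 months against a fetal difference of -3.30 (interaction 2.46, adjusted p = 2.67e-07, limma). NTRK2 had an interaction of -1.42 with the fetus, and LRP4 one of 1.64 with the fetus and 2.07 with the liver.

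CHRNA9 was higher in LWDM muscle and differed by -1.39 in liver, a fitted interaction of 3.83 (adjusted p = 6.36e-07, limma) that was 1.97 with normexp and loess. MAN2B2 differed by 3.24 in muscle at 5 months and by 3.04 in liver, against -0.80 in fetal muscle, where 3 of 6 LWDM arrays were well above background (interaction 4.04, adjusted p = 3.77e-10, limma). C6orf165 was lower in LWDM muscle (-2.73 ± 0.51, with 3 of 7 LWDM arrays well above background) and was not tested in liver. HNRNPA3 differed by 1.78 and 1.30 at 5 months and by -1.37 in the fetus (interaction 3.15, adjusted p = 0.000101, limma).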

How the data were processed

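Two-colour arrays (AGPOA3, 60-base probes) were scanned and read with Agilent Feature Extraction 9.5, per the file headers. The deposited intensity values are background-subtracted, dye-normalized signals of both dyes, and the deposited log10 values are ratios of Cy5 over Cy3, which were turned to log2 of Cy3 over Cy5. Of 44638 spots per array, 1417 control spots and, on each array, 2 to 10 outlier probes were left out, and the 10 to 18 saturated spots were kept. Tested probes had Cy3 spots well above background in all animals of LWDL, of LWDM or of both, and 3 or more values in each. The precision is limited by the 8 and 7 arrays.

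Breed types were compared with limma 3.58.1 (lmFit, eBayes) in R 4.3.3, on the 15 arrays alone, in place of the methods' Student test, which was an alternative. Ages were compared as an interaction over the muscle arrays of both ages, and muscle with liver with the animal as a random block (correlation 0.0651), as 12 of 15 muscle arrays were nearest to the liver array of their own number. Lower bounds of folds came from Cy3 signals after normexp (offset 50), loess and quantile normalization. The fits were tried on simulated data.

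Symbols come from the supplementary tables. A gene stands as its tested probe with the highest mean Cy3 signal. Named are the genes that the study discusses for this muscle, the 15 widest separated differences in each direction, called members of 15 gene lists, the 5 genes with the widest interactions with fetus and with liver, and 2 unnamed probes in each direction. FLT1, PECAM1, ELTD1, CNP, MGARP and NEB were added as markers or neighbours after their values were seen. Some genes that meet these rules are left out of the text. Members and lists were chosen with earlier results of these data known. Slide was a random block (correlation 0.157), and replicates 1 to 4 against the rest as a fixed term was chosen after seeing the data. Replicate numbers do not pair LWDL with LWDM pigs.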

Additional observations from a re-analysis of the deposited data

Results flagged for a closer look

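For each gene named above, the animals of a breed type were searched for one that stood apart, by Dixon's ratio of its gap to the nearest animal over the range of the group. Of 240 groups 24 held such an animal, and chance gives about 1 in 20. LWDL replicates 4 and 8 held 4 each of the 24.

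Among the metabolic and contractile genes, LWDL replicate 4 was low for AMY2B (2.90) and ACTA1 (6.93). LWDL replicate 6 was low for SCD (-4.49), LWDM replicate 2 high for RBP5 (-3.44), LWDM replicate 3 low for CA3 (2.79) and LWDM replicate 6 high for PFKFB2 (0.63). Among the immune, neuronal and matrix genes, LWDL replicate 8 was high for HLA-DRB1 (1.23) and low for POSTN (-5.57), and LWDL replicate 4 was high for NID1 (-1.41). LWDM replicate 3 was high for UCHL1 (4.06), LWDM replicate 6 low for TNFRSF11B (3.78), LWDM replicate 5 low for THBS1 (-1.34) and LWDL replicate 1 high for RGS7 (1.66).

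Among the signalling and nuclear genes, LWDL replicate 3 was low for NOG (0.52), LWDL replicate 8 low for TRPS1 (2.38) and high for HIST1H2BE (-0.61), and LWDL replicate 5 low for HNRNPA3 (-1.40). LWDM replicate 7 was high for NTN4 (2.29), LWDM replicate 1 for NEAT1 (1.56) and LWDM replicate 4 for RAVER2 (4.74). Among the genes higher in LWDL, LWDM replicate 3 was low for PLCXD2 (3.16), LWDM replicate 5 low for ZNF335 (-3.76), LWDL replicate 4 low for WDR3 (-0.23) and LWDL replicate 2 high for ELF2 (1.67).

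The interaction of the contrast with age passed the test for 56 of the 100 named genes tested at both ages, and 19 of these, picked after their values were seen, are given here. It was higher at 5 months by 1.22 for AMY2A, 1.24 for AMY2B, 1.44 for GYG2, 1.41 for PFKFB2, 1.57 for ESRRG and 1.00 for ANGPTL4. It was also higher by 1.28 for PANX2, 1.08 for UCHL1, 1.46 for TNFRSF11B, 2.46 for NID1, 1.87 for CADM1, 1.64 for LRP4 and 0.84 for BOC, and by 1.80 for MLF1IP, 3.15 for HNRNPA3 and 4.04 for MAN2B2. It was lower, with differences of -1.24 for PGM1, -2.25 for POSTN and -1.42 for NTRK2. For MAN2B2, 3 of 6 fetal LWDM arrays were well above background, and with normexp and loess the interaction of PFKFB2 was 0.57 (adjusted p = 0.0549, limma). With the Cy3 channel alone that of PGM1 was -1.26 (adjusted p = 0.0926, limma) and that of ANGPTL4 was 0.96 (adjusted p = 0.0788, limma).

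The interaction with the liver passed for 35 of the 85 named genes tested in both tissues, of which 15 are given, picked in the same way. It was higher in muscle by 1.16 for AMY2A, 1.32 for AMY2B, 1.65 for PFKFB2, 1.38 for PDHA1, 1.09 for NUDT7, 2.04 for ANGPTL4 and 1.59 for HSD11B1. The same held by 1.66 for PANX2, 1.51 for TNFRSF11B, 3.83 for CHRNA9, 2.63 for CADM1, 2.07 for LRP4, 1.49 for both WLS and BOC and 0.81 for MLF1IP. Most of these genes were named for a call in muscle at 5 months, whose values enter the interaction.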

How the results depend on the processing

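Of the values of named genes and the counts, 1 changed its direction under a setting run, that of NEB, which did not pass the test (0.14, and -0.11 with the Cy3 channel alone). The 427 called probes (243 higher in LWDM, 184 in LWDL) became 143 (101 and 42) with normexp and loess, of which 135 were among the 427. They became 251 (158 and 93) with signal required on all 15 arrays and 653 (319 higher in LWDL) with no filter on dim probes. Without a fold minimum 9263 passed (5364 and 3899), and with the slide as a random block 3221 and 2132. With the Cy3 channel alone the interaction with the fetus was called for 2778 probes in place of 4555 and that with the liver for 4270 in place of 7202. Leaving out 1 animal gave 407 to 461 calls, 223 to 264 higher in LWDM and 169 to 198 higher in LWDL. The medians of the immune cell list (-0.02) and of the glucocorticoid and retinoid list (0.06) were 0.09 and -0.01 with normexp and loess. With the Cy3 channel alone the glucocorticoid and retinoid median was -0.02, and that of all tested probes (0.02) was -0.007. The median difference of the tested adipocyte markers (0.23) was -0.02 there. The cause of these shifts was not tested.

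Of 95 called genes named here, 42 were over 2-fold with normexp and loess, where 91 passed the test, and 83 were called with Cy3 alone, where EMR1, NTN4, RPL32 and RPS21 missed the adjusted p, 89 with the slide as a random block, 72 in one fit over all muscle arrays (adjusted p of 0.0524 to 0.32 for HK2, PGM1, AMY2A, AMY2B, RBP5, POPDC2, OAS1, ABI3BP, TNFAIP6, EGFL6, RAB3B, NTRK2, CNTN3, RLN2, BOC, HOXA10, BARX2, MKX, MYBL1, MBNL2, ELTD1, ELF2 and MGARP), and 95 by the methods' Student test. One animal could be left out in turn without the loss of a call for 72. As a check of pairing, deviations of same-numbered LWDL and LWDM pigs correlated at -0.0283 to 0.226, and with the replicate block 460 probes were called (263 higher in LWDM, 197 in LWDL). Dim spots limit the folds: 20 called probes were well above background on no array of one breed type and 250 on all 15 arrays. The differences that moved by over 1.5 times with normexp and loess and are not given above were, for genes higher in LWDM, MAN2B2 2.55, MLF1IP 2.31, RPL32 1.73, CSMD2 1.23, CHGB 1.07, FAM200B 1.02, DSCR3 0.70, HLA-DRB1 0.63, HLA-DQA1 0.56, RBP5 0.54, LGI1 0.54, NOG 0.53, DIRAS3 0.44, BARX2 0.40, RAVER2 0.30, EMR1 0.27 and RAB3B 0.20, and, for genes higher in LWDL, C6orf165 -1.35, CLTC -0.79, CD163 -0.69, SNRPA1 -0.69, ZNF335 -0.61, DIS3L2 -0.60, RLN2 -0.58, LEPRE1 -0.50, GPC6 -0.46, SPRY1 -0.45, COL1A2 -0.42, FLT1 -0.42, HNRPLL -0.40, ART4 -0.39, STON1-GTF2A1L -0.33, MKX -0.32, ABI3BP -0.30 and CNTN3 -0.28.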
